A study of Citrus sinensis with 36 samples.

Results

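MADS-box transcription factors of the fruit of sweet orange (Citrus sinensis) were described in peel and pulp, by variety and by cultivar group. Members were the genes whose best protein match in the deposited descriptions was named as a MADS-box protein, an AGAMOUS or AGAMOUS-like protein, a floral homeotic protein, SEPALLATA or Short Vegetative Phase (SVP). This gave 82 of the 29654 genes in the table. Of these, 79 were matched to MADS-box proteins, and the other 3 were matched to APETALA 2, a floral homeotic protein that carries another DNA-binding domain and is counted apart below. By description, 34 members were of type I, 8 of the AGAMOUS group, 7 of the MIKC* group, 5 each of the APETALA1/FRUITFULL and APETALA3/PISTILLATA groups, 4 each of the SEPALLATA and AGL17/ANR1 groups and 3 each of the SVP and SOC1 groups. The AGL6 and AGL15/AGL18 groups had 2 each, and B-sister and AGL12 had 1 each.

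The study compared Valencia oranges (VO), which ripen late and are known for a poor texture on chewing, with common sweet oranges (CO). Fruit was harvested at 220 days after flowering (DAF) and dissected by hand into peel and pulp. The CO varieties were Jincheng (JC), Taoye (TY) and Xianfeng (XF) oranges, and the VO varieties were Cutter (CU), Delta (DE) and Rohde Red (RR) Valencia oranges. Each variety and tissue had 3 libraries, 36 in all, each from several trees of 1 variety. All trees grew in the same nursery, and no treatment was applied that the labels name. At this date the CO fruit was mature and the VO fruit was still coloring, so cultivar group and ripening stage cannot be told apart. The replicate of a cultivar group is the variety, with n = 3 in each.

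MADS-box proteins bind DNA through the domain that gives the family its name, and those of type II (MIKC) act in complexes of several family members. In flowers, combinations of A, B, C, D and E class proteins set the identity of sepals, petals, stamens, carpels and ovules, and the E class SEPALLATA proteins link the others. Several of the same groups go on to work in the fruit: in tomato, proteins of the SEPALLATA, AGAMOUS and FRUITFULL groups control ripening, and in Arabidopsis the FRUITFULL and SHATTERPROOF proteins pattern the fruit wall.

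The libraries held 14.8 to 18.8 M mapped fragments (median 16.3 M), with medians between 16.1 and 16.9 M in the 4 sets of group and tissue. Genes entered the tests of a tissue if any variety mean there reached 0.3 FPKM (fragments per kilobase of gene length and per M mapped fragments), and are called kept below. Of the 82 members, 34 were kept in peel or pulp, 32 of them in peel, 30 in pulp and 28 in both. Of the 48 members that were not kept, 20 had no fragment in any of the 36 libraries and 28 had some, up to 63 fragments in 1 library.

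The groups differed in how many members the fruit expressed at this level. All 5 members of the APETALA1/FRUITFULL group and all 4 SEPALLATA members were kept. Of the 8 AGAMOUS group members 4 were kept, and the other 4, all matched to AGL11, had no fragment in any library. Type I genes, which in Arabidopsis act mainly in the female gametophyte and endosperm, had 9 of 34 kept, and 16 of the 34 had no fragment. All 10 genes matched to AGL62, which delays the end of free nuclear division in the Arabidopsis endosperm, were below the filter. So were the 3 members of the SOC1 group, the floral integrators, and both genes matched to SVP, a repressor of flowering.

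The order of levels was led by 1 gene. Cs7g10980, matched to an AGL9 homolog of petunia (AGL9 is another name of SEPALLATA3), had variety means of 614 (JC), 643 (TY) and 587 (XF) FPKM in CO peel and 545 (CU), 504 (DE) and 528 (RR) in VO peel. In pulp they were 439, 443 and 469 FPKM in CO and 382, 359 and 369 in VO. The VO varieties lay below the CO varieties in both tissues without overlap, but the difference did not pass the test in peel (log2 -0.23, adjusted p = 0.237, limma) or pulp (log2 -0.28, adjusted p = 0.0723). By mean level it ranked 22nd of all genes in CO peel, 31st in VO peel, 55th in CO pulp and 76th in VO pulp.

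Cs7g16970, matched to AGL1 (SHATTERPROOF1), came next by FPKM, at 81.2 to 87.2 FPKM over the CO varieties and 91.0 to 102 FPKM over the VO varieties in peel. In pulp, CO ran from 117 to 163 FPKM and VO from 195 to 215 FPKM. Its deposited length was 1194 bases, against 5271 for Cs6g19680, matched to SEPALLATA 2. Over all libraries Cs7g16970 had 93547 fragments and Cs6g19680 had 96868, so the place of Cs7g16970 above Cs6g19680 rests on the lengths. The gene length in these FPKM values is, at the median over matched genes, close to the span of the gene, introns included. This lowers the level of genes with long introns in any comparison between genes. The order of levels and the shares below depend on these lengths. On this scale the SEPALLATA group made up 77.6% ± 0.452 (SD, n = 3 varieties) of the summed MADS-box FPKM in CO peel, 71.5% ± 0.914 in VO peel, 64.2% ± 2.14 in CO pulp and 51.2% ± 0.975 in VO pulp. The AGAMOUS group made up 13.03% ± 0.548, 15.6% ± 1.03, 24.03% ± 2.45 and 33.9% ± 1.17 in the same order. The range of the variety shares did not overlap between CO and VO for either group in either tissue, and these shares were not tested. They rest mainly on 1 gene each. By group mean, Cs7g10980 alone made up 72.4%, 66.3%, 58.1% and 45.3% of the sum, in the same order. Cs7g16970 alone made up 9.98%, 12.2%, 17.6% and 25.1%. As shares of 1 sum, those of the SEPALLATA and AGAMOUS groups are not independent. The summed FPKM itself was 849 ± 36.7 in CO peel, 793 ± 21.3 in VO peel, 775 ± 53.1 in CO pulp and 817 ± 9.16 in VO pulp.

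**Figure D1:**
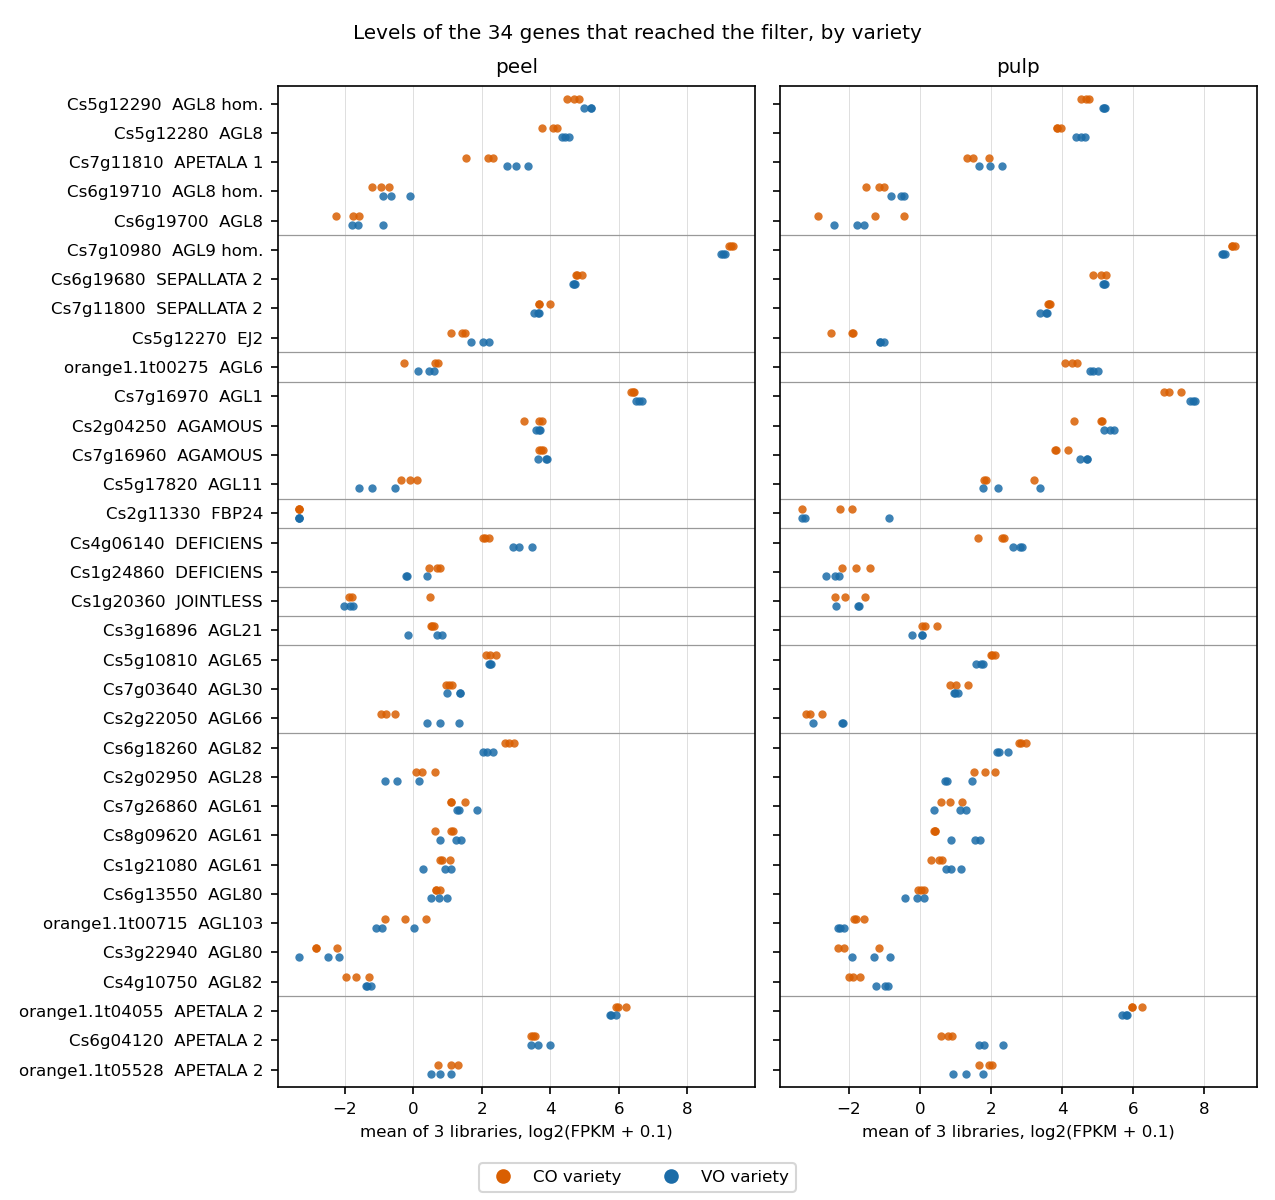
Levels of the 34 genes kept in peel or pulp (rows, grouped by type with lines between groups), on the log2(FPKM + 0.1) scale; each point is the mean of 3 libraries of 1 variety, orange for CO and blue for VO. Cs7g10980 lies above all others in both tissues, and orange1.1t00275 (AGL6) and Cs5g12270 (EJ2) lie far apart between peel and pulp.

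In peel, 7 of the 32 members tested differed between VO and CO, against 20.4% of all 18375 genes tested, so the share of members was close to that of all genes. Of the 7, 6 were higher in VO (13.2% of all genes were) and 1 was lower (7.15% of all genes were), and all 7 reached the filter in both cultivar groups. The median log2 difference over the 32 members was 0.06 and that over all genes 0.05. The variety means of the groups did not overlap for 14 of the 32 members (7 with VO higher, 7 with VO lower), against 41.7% of all genes.

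The APETALA1/FRUITFULL group gave 3 of the 6 higher members. Cs7g11810, matched to APETALA 1, which gives floral meristems and sepals their identity, had variety means of 2.80 (JC), 4.43 (TY) and 4.95 (XF) FPKM in CO peel and 7.93 (CU), 6.54 (DE) and 10.05 (RR) FPKM in VO peel. The 9 CO libraries ran from 2.70 to 5.14 FPKM (median 4.55) and the 9 VO libraries from 6.28 to 10.2 FPKM (median 7.77), so no library overlapped. The difference was 2.01-fold (log2 1.01 ± 0.24 SE, adjusted p = 0.0320).

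Cs5g12290 and Cs5g12280, both matched to AGL8 (FRUITFULL), carry neighbouring identifiers. Cs5g12290 had 25.5, 28.6 and 22.4 FPKM in the CO varieties (in the order JC, TY, XF) and 36.3, 31.5 and 36.7 FPKM in the VO varieties (CU, DE, RR). It was 1.37-fold higher in VO (log2 0.45 ± 0.11 SE, adjusted p = 0.0302). The lowest VO library, at 30.2 FPKM, was below the highest CO library, at 32.0 FPKM, while the variety means did not overlap. Cs5g12280 had 16.8, 18.04 and 13.4 FPKM in CO and 21.5, 20.3 and 23.4 FPKM in VO, a difference of 1.36-fold (log2 0.45 ± 0.12 SE, adjusted p = 0.0456). The ratio of Cs5g12290 to Cs5g12280 stayed between 1.35 and 1.96 over the 18 peel libraries and between 1.44 and 2.05 over the 18 pulp libraries. These data do not tell whether the pair are separate genes or pieces of 1 gene, so they may count once. The other AGL8-matched members, Cs6g19710 and Cs6g19700, stayed at or below 0.836 FPKM in every variety of either tissue, and neither passed the test.

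Cs5g12270 was the SEPALLATA member that differed in peel; it was matched to EJ2, which in tomato shapes sepals and inflorescence branching. It had 2.75, 2.06 and 2.60 FPKM in CO and 4.57, 3.09 and 4.03 FPKM in VO (1.55-fold, log2 0.63 ± 0.18 SE, adjusted p = 0.0498). The 2 genes matched to SEPALLATA 2 lay the other way: Cs6g19680 had a log2 difference of -0.13 (adjusted p = 0.215) and Cs7g11800 of -0.17 (adjusted p = 0.278).

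The smallest adjusted p in peel belonged to a B class gene. Cs4g06140, matched to DEFICIENS, which specifies petals and stamens in Antirrhinum, had 4.17 (JC), 4.52 (TY) and 3.99 (XF) FPKM in CO peel and 7.40 (CU), 11.01 (DE) and 8.32 (RR) FPKM in VO peel. The CO libraries ended at 4.69 FPKM and the VO libraries began at 7.23 FPKM. The difference was 2.06-fold (log2 1.04 ± 0.15 SE, adjusted p = 0.00719). In pulp the same gene had 4.83, 5.08 and 3.04 FPKM in CO and 6.09, 6.98 and 7.21 FPKM in VO, and the libraries were apart there too (up to 5.29 FPKM in CO, from 5.57 FPKM in VO), but the test was not passed (log2 0.67, adjusted p = 0.0595). Of the other DEFICIENS-matched members, Cs1g24860 had 1.26, 1.62 and 1.51 FPKM in CO peel and 1.23, 0.758 and 0.787 FPKM in VO peel and did not pass the test (log2 -0.67, adjusted p = 0.0627). Cs3g25600 was below the filter, at up to 0.0290 FPKM in the CO varieties and up to 0.231 FPKM in the VO varieties in peel. Both members matched to the partner of DEFICIENS in petal and stamen identity (GLOBOSA of tobacco and FBP1 of petunia) stayed below the filter.

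The largest fold among the 7 belonged to a gene of low level. Cs2g22050, matched to AGL66, which acts in Arabidopsis pollen, had 0.589, 0.419 and 0.479 FPKM in CO peel and 1.23, 2.40 and 1.62 FPKM in VO peel. These values rest on 7 to 25 fragments a library in CO and 27 to 97 fragments in VO, ranges that did not overlap. VO was 3.11-fold higher (log2 1.64 ± 0.27 SE, adjusted p = 0.0103). In pulp the gene had at most 6 fragments a library and was not kept.

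Cs6g18260, a type I gene matched to AGL82, was the 1 member lower in VO peel. It had 7.56, 6.24 and 6.81 FPKM in CO and 4.37, 4.96 and 4.04 FPKM in VO (log2 -0.62 ± 0.11 SE, adjusted p = 0.0135), and the lowest CO library, at 5.86 FPKM, was above the highest VO library, at 5.04 FPKM. Cs5g17820, matched to AGL11 (SEEDSTICK, which sets ovule identity), lay lower in VO peel, with 0.845, 0.990 and 0.677 FPKM in CO and 0.237, 0.589 and 0.330 FPKM in VO, and did not pass (log2 -1.02, adjusted p = 0.0606).

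Of these 7 calls, those of Cs4g06140 and Cs2g22050 held in all 18 alternative settings. The call of Cs6g18260 was lost without XF (adjusted p = 0.0518), and those of Cs7g11810, Cs5g12290, Cs5g12280 and Cs5g12270 were lost without JC, XF, CU or RR, each in turn (also without DE for Cs5g12280 and without TY for Cs5g12270), with adjusted p up to 0.0963, 0.0979, 0.135 and 0.138 over all the settings that ended them. In the same order, these calls were lost in 5, 6, 10 and 14 of the 18 settings, each of them also without the trend. For Cs5g12280 and Cs5g12270 the settings included no filter and median-of-ratios scaling. The call of Cs5g12270 was also lost at both other pseudocounts and without each replicate number.

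In pulp, 10 of the 30 members tested differed between VO and CO, against 19.5% of all 17222 genes tested. Of these, 8 were higher in VO (12.0% of all genes were) and 2 were lower (7.48% of all genes were). The median log2 difference over the 30 members was 0.27, and that over all genes was 0.02. The variety means did not overlap for 19 of the 30 members (13 with VO higher, 6 with VO lower), against 42.7% of all genes. Of the 30, 4 reached the filter in 1 cultivar group only, and 1 of the 8 higher members, Cs5g12270, was among them. Of the 26 that reached it in both groups, 9 differed (7 higher, 2 lower), against 18.5% of all genes that did so.

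The AGAMOUS group was higher in VO pulp in 2 of its 4 kept members. Cs7g16970 (AGL1), a relative of the tomato gene TAGL1, which acts in fleshy fruit growth and ripening, had 117 (JC), 130 (TY) and 163 (XF) FPKM in CO pulp and 205 (CU), 215 (DE) and 195 (RR) FPKM in VO pulp. Every VO library, from 191 FPKM upward, was above every CO library, which ended at 167 FPKM. The difference was 1.52-fold (log2 0.60 ± 0.13 SE, adjusted p = 0.0241).

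Its neighbour by identifier, Cs7g16960, was matched to AGAMOUS of petunia. It had 14.04, 13.9 and 18.04 FPKM in CO pulp and 25.8, 25.9 and 22.7 FPKM in VO pulp (1.62-fold, log2 0.70 ± 0.12 SE, adjusted p = 0.0111). The ratio of Cs7g16970 to Cs7g16960 was 5.84 to 8.11 in peel and 7.38 to 10.3 in pulp, and here too the data do not tell separate genes from pieces of 1 gene. The third member, Cs2g04250, matched to AGAMOUS of tobacco, the C class gene of stamens and carpels, had 20.3, 34.9 and 34.1 FPKM in CO pulp and 36.2, 40.3 and 44.4 FPKM in VO pulp; the variety means did not overlap and the test was not passed (log2 0.47, adjusted p = 0.162). Cs5g17820 (AGL11) overlapped between the groups, as described further on.

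The AGL8-matched pair was higher in VO pulp as in VO peel. Cs5g12290 had 25.2, 22.9 and 26.8 FPKM in CO pulp and 36.7, 36.1 and 35.7 FPKM in VO pulp (1.45-fold, log2 0.54 ± 0.08 SE, adjusted p = 0.00602), and Cs5g12280 had 14.3, 14.4 and 15.5 FPKM in CO and 24.7, 20.8 and 22.99 FPKM in VO (1.55-fold, log2 0.63 ± 0.08 SE, adjusted p = 0.00475). The libraries of the groups did not overlap for either gene in pulp. Cs7g11810 (APETALA 1) had 2.43, 2.75 and 3.73 FPKM in CO pulp and 3.81, 3.06 and 4.91 FPKM in VO pulp, which overlapped, and did not pass (log2 0.39, adjusted p = 0.242).

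AGL6 proteins are the closest relatives of the SEPALLATA proteins and act beside them in flowers. The kept AGL6 member, orange1.1t00275, had 16.8 (JC), 21.4 (TY) and 19.5 (XF) FPKM in CO pulp and 27.5 (CU), 29.3 (DE) and 32.4 (RR) FPKM in VO pulp. The CO libraries ended at 22.2 FPKM and the VO libraries began at 26.7 FPKM. VO was 1.55-fold higher (log2 0.63 ± 0.11 SE, adjusted p = 0.0117). Cs5g12270 (EJ2) was near the filter in pulp, with 0.171, 0.0765 and 0.166 FPKM in CO and 0.361, 0.396 and 0.360 FPKM in VO, on 2 to 13 and 11 to 26 fragments a library. It entered the pulp comparison only through the VO varieties, where it was higher, so its difference there is given as a description.

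Cs6g04120 was the member with the largest difference in pulp, and it is not a MADS-box gene. It was matched to APETALA 2, whose tomato relative AP2a restrains ripening. It had 1.63, 1.43 and 1.76 FPKM in CO pulp and 4.97, 3.08 and 3.40 FPKM in VO pulp, a difference of 2.28-fold (log2 1.19 ± 0.19 SE, adjusted p = 0.00913), and the libraries did not overlap (up to 2.01 FPKM in CO, from 2.67 FPKM in VO). The other members matched to APETALA 2 lay the other way: orange1.1t04055 had 63.1, 75.7 and 63.0 FPKM in CO pulp and 56.9, 55.3 and 51.6 FPKM in VO pulp (log2 -0.30, adjusted p = 0.0717), and orange1.1t05528 had a log2 difference of -0.51 (adjusted p = 0.161).

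Among type I and MIKC* members, 1 was higher and 2 were lower in VO pulp. Cs8g09620, matched to AGL61, a factor of the central cell in Arabidopsis, had 1.24, 1.24 and 1.21 FPKM in CO and 1.72, 2.86 and 3.16 FPKM in VO (1.97-fold, log2 0.98 ± 0.22 SE, adjusted p = 0.0276), on 11 to 20 and 21 to 40 fragments a library. Cs6g18260 (AGL82) had 6.79, 7.05 and 7.88 FPKM in CO and 4.44, 4.59 and 5.45 FPKM in VO (log2 -0.58 ± 0.11 SE, adjusted p = 0.0144), close to its difference in peel. Cs5g10810, matched to AGL65, an Arabidopsis pollen factor, had 3.99, 4.22 and 3.88 FPKM in CO and 3.36, 3.18 and 2.91 FPKM in VO (log2 -0.35 ± 0.09 SE, adjusted p = 0.0430).

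The calls of Cs5g12280, Cs5g12290 and Cs6g04120 held in all 17 alternatives in pulp. Those of Cs6g18260 and Cs7g16960 were lost without DE (adjusted p = 0.0647 and 0.0503) and that of orange1.1t00275 without RR (adjusted p = 0.0508), while those of Cs7g16970 (without JC, TY, CU, DE or RR), Cs8g09620 (without JC, TY, XF, DE or RR) and Cs5g10810 (without any 1 of the 6 varieties) reached adjusted p of 0.0940, 0.102 and 0.151. The call of Cs5g10810 was also lost with no filter and without replicate 1 or 2, in 9 of 17 alternatives in all.

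**Figure D2:**
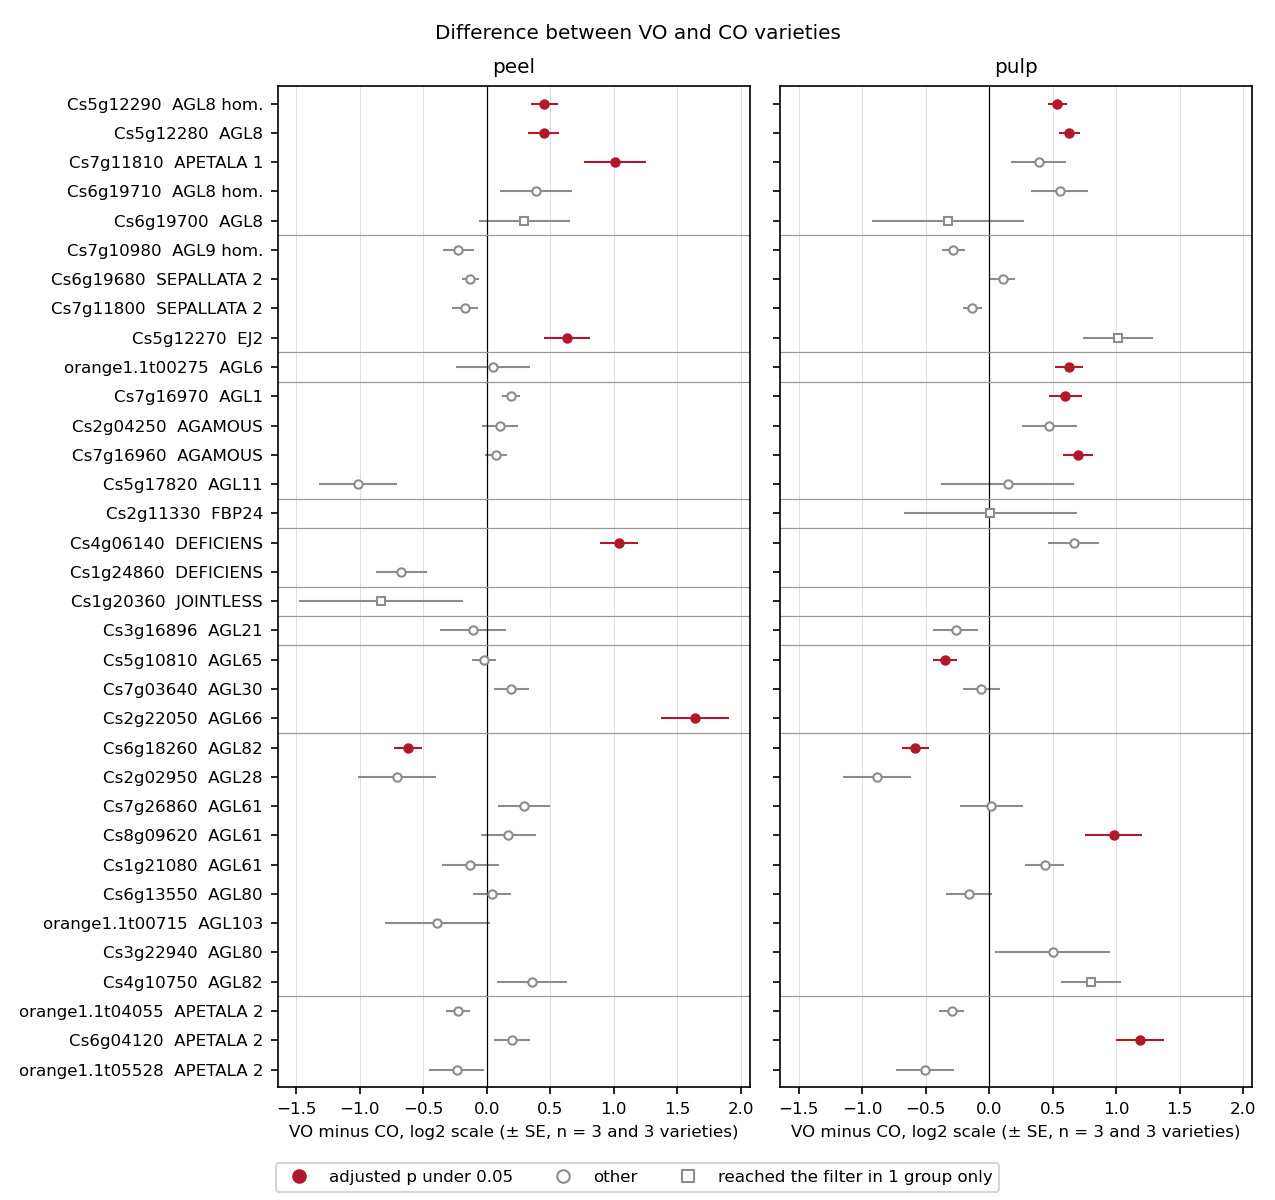
Difference between VO and CO on the log2(FPKM + 0.1) scale in peel (left) and pulp (right) for the members tested in each tissue; points are estimates, bars are ± SE over 3 CO and 3 VO varieties, and red points passed an adjusted p of 0.05. Squares are members that reached the filter in 1 cultivar group only. The AGL8-matched pair Cs5g12290 and Cs5g12280 lies to the right of 0 past the threshold in both tissues, and in pulp so do AGL6 and 2 of the 4 AGAMOUS group members.

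Peel and pulp were cut by hand, so the markers of other tissues in the same libraries are given here. The summed FPKM of 23 genes with descriptions of epidermis, cutin or wax proteins ran in peel from 106 to 152 over CO libraries and from 73.2 to 86.1 over VO libraries, and in pulp from 84.3 to 108 over CO and from 114 to 146 over VO, with no overlap between CO and VO libraries in either tissue. Of the 23, 2 to 4 were at 0 throughout a group and tissue. The single genes did not all follow the sum. In peel 4 of 17 tested were higher and 4 lower in VO (limma), 47.1% in all, against 20.4% of all genes. Of these 17, 16 reached the filter in CO peel and 13 in VO peel. In pulp 5 of 17 were higher and 2 lower, 41.2% in all, against 19.5% of all genes. Of these 17, 13 reached the filter in CO pulp and 16 in VO pulp. Genes that reached it in 1 cultivar group only entered through the group where they were higher, and the marker counts here include them. Over all genes, 28.8% of such genes passed in peel and 32.1% in pulp, against 19.8% and 18.5% of the rest. The sum over 18 vascular genes ran in peel from 51.2 to 76.2 over CO and from 65.9 to 78.1 over VO, and in pulp from 19.1 to 34.2 over CO and from 23.4 to 34.1 over VO. Of the 18, 4 were at 0 in all CO pulp libraries and 2 in all VO pulp libraries. In peel 4 of 13 tested were higher in VO and none lower (limma), 30.8%, against 20.4% of all genes. All 13 reached the filter in VO peel and 8 in CO peel. In pulp 1 of 8 was higher and none lower, 12.5%, against 19.5% of all genes. The part of tissue make-up in the differences above was not tested. In bulk tissue, fewer cells of a type and less RNA per cell cannot be told apart.

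**Figure D3:**
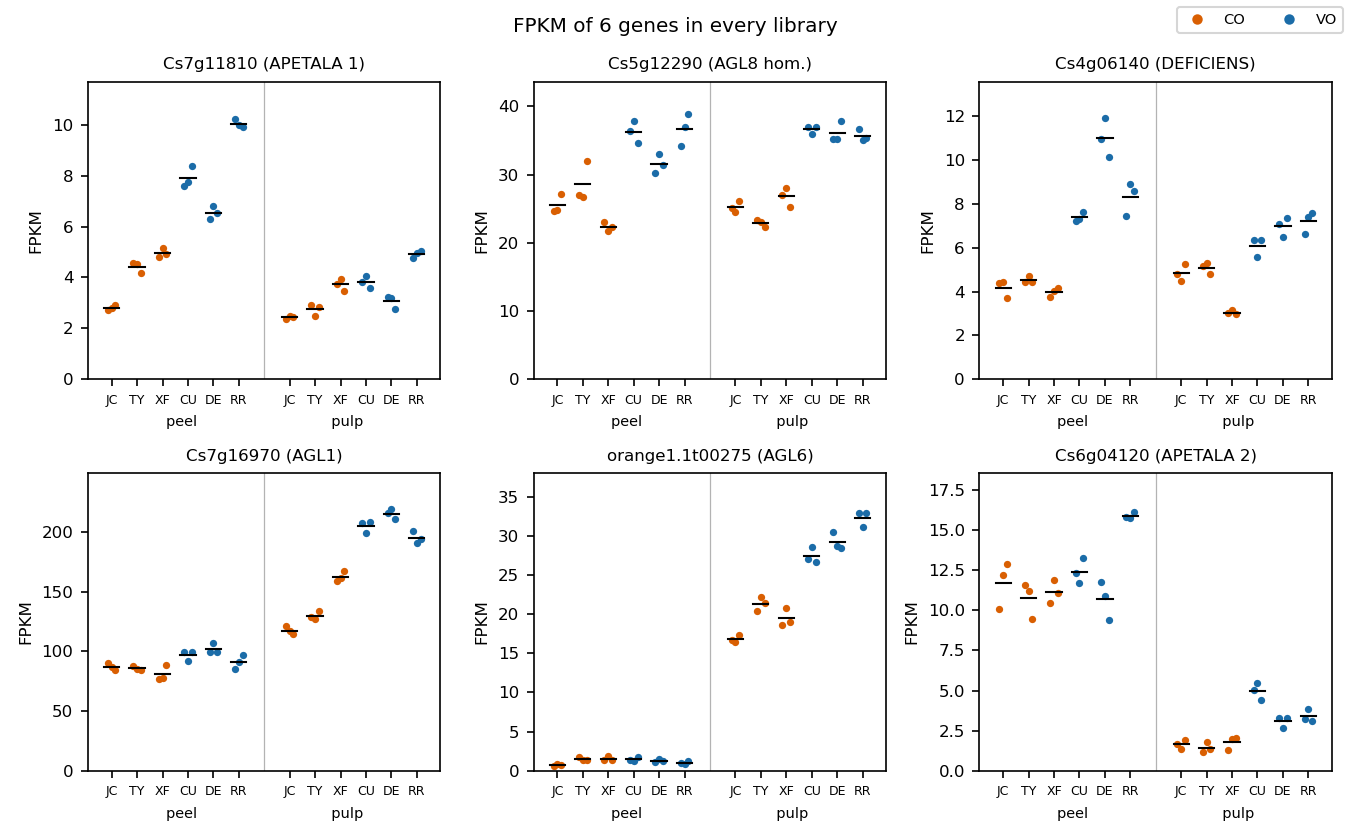
FPKM in each of the 36 libraries (points) for 6 genes that differed between VO and CO, by variety within peel and pulp; black bars are means of 3 libraries, orange is CO and blue is VO. The CO and VO libraries do not overlap for DEFICIENS in either tissue, for APETALA 1 in peel, and for AGL1, AGL6, APETALA 2 and the AGL8 homolog in pulp.

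Whether the VO to CO difference itself depended on the tissue was tested with 1 pulp minus peel value per variety. Of the 34 members tested, 3 passed (8.82%), against 7.05% of all 18838 genes tested, so the share of members was close to that of all genes. The VO minus CO difference of Cs6g04120 (APETALA 2) was larger in pulp by 0.99 ± 0.22 SE on the log2 scale (adjusted p = 0.0459), since its peel levels overlapped between the groups (11.7, 10.8 and 11.2 FPKM in CO, 12.4, 10.7 and 15.9 FPKM in VO). That of Cs7g16960 (AGAMOUS) was larger in pulp by 0.63 ± 0.14 SE (adjusted p = 0.0462), with overlapping peel levels of 13.2, 13.8 and 12.6 FPKM in CO and 14.8, 14.5 and 12.4 FPKM in VO. That of Cs7g11810 (APETALA 1) was smaller in pulp (log2 -0.62 ± 0.14 SE, adjusted p = 0.0493).

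These 3 calls were close to the threshold. Each was lost in 10 to 12 of 17 alternatives, at a pseudocount of 0.01 and without JC, CU, DE or RR among others, with adjusted p from 0.0502 to 0.150. Cs8g09620 (AGL61) was lower in pulp than in peel in the 3 CO varieties and higher in pulp in the 3 VO varieties, and this difference did not pass the test (log2 0.81 ± 0.21 SE, adjusted p = 0.0625). For Cs7g16970 (AGL1) and orange1.1t00275 (AGL6), which passed in pulp and not in peel, the difference between the tissues did not pass (log2 0.41, adjusted p = 0.152, and log2 0.58, adjusted p = 0.203).

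Between pulp and peel, 20 of the 34 members differed, against 66.6% of all genes tested. Of these, 9 were higher in pulp (20.1% of all genes were) and 11 were lower (46.5% of all genes were). The median log2 difference was -0.11 over the members and -0.23 over all genes. Of the 34, 6 reached the filter in 1 tissue only and so entered through the tissue where they were higher. They are described below without a test, and 4 of them are in the count of 20. Of the 28 that reached it in both tissues, 16 differed (8 higher and 8 lower in pulp), against 65.3% of all genes that did so. Scaling the libraries by median-of-ratios size factors moved the median of all genes by 0.17, and with it 11 members were higher in pulp and 9 were lower, with 18 members in both sets of 20. Cs6g18260 (AGL82) and orange1.1t04055 (APETALA 2) then passed and Cs3g16896 (AGL21) and Cs7g26860 (AGL61) did not, and 6 members that passed on neither scale changed sign. The tissue differences below are on the deposited scale and can be read against that shift.

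AGL6 gave the largest difference between the tissues. orange1.1t00275 had 0.727, 1.45 and 1.54 FPKM in CO peel and 1.44, 1.28 and 1.01 FPKM in VO peel, against 16.8 to 32.4 FPKM over the 6 varieties in pulp. It was 18.5-fold higher in pulp (log2 4.21 ± 0.16 SE, adjusted p = 2.0e-06), in 6 of 6 varieties.

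All 4 kept members of the AGAMOUS group were higher in pulp, as were 20.1% of all genes. Cs7g16970 and Cs7g16960 may be pieces of 1 gene and so may count once. Cs5g17820 (AGL11) was 7.83-fold higher (log2 2.97 ± 0.38 SE, adjusted p = 0.000311), Cs2g04250 (AGAMOUS) 2.81-fold (log2 1.49 ± 0.15 SE, adjusted p = 9.7e-05), Cs7g16970 (AGL1) 1.84-fold (log2 0.88 ± 0.11 SE, adjusted p = 0.000229) and Cs7g16960 (AGAMOUS) 1.43-fold (log2 0.52 ± 0.13 SE, adjusted p = 0.00953). For Cs2g04250 the 18 peel libraries ran from 9.04 to 14.1 FPKM and the 18 pulp libraries from 19.9 to 45.6 FPKM, with no overlap.

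The SEPALLATA members were split. Cs5g12270 (EJ2) was 9.86-fold lower in pulp (log2 -3.30 ± 0.14 SE, adjusted p = 2.4e-06), and Cs7g10980 (AGL9 homolog) was 1.39-fold lower (log2 -0.48 ± 0.08 SE, adjusted p = 0.000918). Cs6g19680 (SEPALLATA 2) was higher in pulp, with 25.2 to 30.4 FPKM over the varieties in peel and 29.4 to 37.4 FPKM in pulp (1.29-fold, log2 0.37 ± 0.06 SE, adjusted p = 0.00154). Cs7g11800 (SEPALLATA 2), at 10.4 to 15.9 FPKM over both tissues, did not pass (log2 -0.12, adjusted p = 0.0952).

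The APETALA1/FRUITFULL pair Cs5g12290 and Cs5g12280 had log2 differences of 0.02 and -0.02 between the tissues (adjusted p = 0.856 and 0.811), while Cs7g11810 (APETALA 1) was lower in pulp (log2 -0.73 ± 0.13 SE, adjusted p = 0.00179). In the B class, Cs4g06140 did not pass (log2 -0.19, adjusted p = 0.189). Cs1g24860 reached the filter in peel only, with 25 to 85 fragments a library there and 2 to 18 in pulp (log2 -2.45). So did Cs2g22050 (AGL66), at 0.419 to 2.40 FPKM over the varieties in peel and at most 0.122 FPKM in pulp (log2 -2.76). Of the APETALA 2 members, Cs6g04120 was 4.77-fold lower in pulp (log2 -2.25 ± 0.21 SE, adjusted p = 6.1e-05) and orange1.1t05528 was 1.61-fold higher (log2 0.69 ± 0.16 SE, adjusted p = 0.00530).

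Of the 7 type I members that reached the filter in both tissues, 3 differed, against 65.3% of all genes that did so. Cs2g02950 (AGL28), at 0.469 to 1.45 FPKM over the varieties in peel and 1.53 to 4.20 FPKM in pulp, was higher in pulp (log2 1.45 ± 0.16 SE, adjusted p = 0.000142). Cs6g13550 (AGL80) was lower in pulp (log2 -0.80, adjusted p = 0.000185), and Cs7g26860 (AGL61) passed with a log2 difference of -0.46 (adjusted p = 0.0351). The type I members that entered through 1 tissue were orange1.1t00715 (AGL103), at 0.369 to 1.20 FPKM over the varieties in peel and at most 0.236 FPKM in pulp, and Cs3g22940 (AGL80), at most 0.122 FPKM in peel and 0.104 to 0.458 FPKM in pulp. The call of Cs7g26860 was lost without JC or RR, among others, and that of Cs3g16896 (AGL21, a factor of lateral roots in Arabidopsis; log2 -0.41, adjusted p = 0.0201) without XF, CU or RR, with adjusted p up to 0.142 and 0.117. The calls of the other 14 members that reached the filter in both tissues held in all 17 alternatives.

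**Figure D4:**
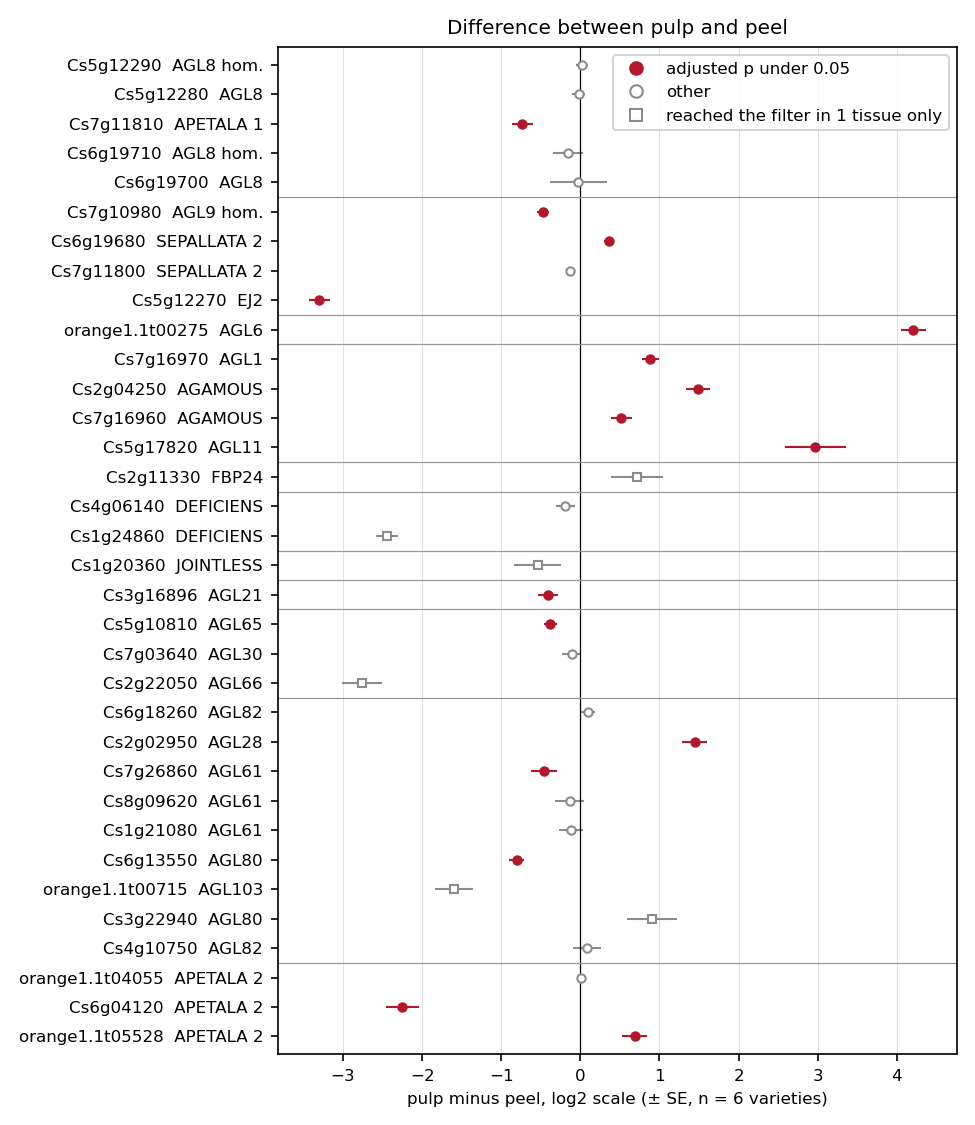
Difference between pulp and peel on the log2(FPKM + 0.1) scale for the 34 members; points are estimates, bars are ± SE over 6 varieties, red points passed an adjusted p of 0.05, and squares reached the filter in 1 tissue only. AGL6 (orange1.1t00275, 4.21) and AGL11 (Cs5g17820, 2.97) lie farthest to the right, and EJ2 (Cs5g12270, -3.30) and AGL66 (Cs2g22050, -2.76, in peel only by the filter) farthest to the left.

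Varieties of 1 cultivar group also differed among themselves. An F-test of the 3 CO varieties against each other and the 3 VO varieties against each other, on the libraries, passed for 20 of 32 members in peel, against 54.5% of all genes, and for 20 of 30 in pulp, against 58.5% of all genes. Here the libraries, not the varieties, were the replicates. Leaving out the members that reached the filter in 1 variety only, which entered through the variety where they were highest, the counts were 19 of 30 in peel and 19 of 29 in pulp, against 55.2% and 59.2% of all genes.

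The member with the widest range between CO varieties in peel was Cs1g20360, matched to JOINTLESS, which in tomato forms the abscission zone of the fruit stalk. XF peel had 1.32 FPKM (109 to 133 fragments a library), while the other 5 varieties had 0.148 to 0.197 FPKM in peel (8 to 23 fragments). The CO varieties spanned 2.37 on the log2 scale, and in pulp XF had 0.242 FPKM, with 0.0914 to 0.207 FPKM in the other varieties. This gene was kept in peel only through XF, so the span is a description with no test.

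Cs5g17820 (AGL11) split the varieties of both groups in pulp. It had 3.42 (JC), 9.13 (TY) and 3.53 (XF) FPKM in CO pulp and 10.4 (CU), 3.32 (DE) and 4.47 (RR) FPKM in VO pulp (F-test adjusted p = 1.3e-05). TY and CU were high, the other 4 varieties were low, and CO and VO overlapped (log2 0.15 ± 0.53 SE, adjusted p = 0.868). In peel TY was at 0.990 FPKM and CU at 0.237, the highest and the lowest of the 6 varieties.

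Cs2g04250 (AGAMOUS) was low in JC pulp (20.3 FPKM) against TY and XF (34.9 and 34.1 FPKM) and low in TY peel (9.24 FPKM) against JC and XF (12.6 and 13.5 FPKM), with F-test adjusted p of 8.8e-11 in pulp and 6.1e-07 in peel. Cs7g11810 (APETALA 1) was lowest in JC within CO and highest in RR within VO in both tissues (F-test adjusted p = 4.5e-09 in peel and 2.5e-06 in pulp). Cs7g16970 (AGL1) was highest in XF within CO pulp (F-test adjusted p = 1.2e-08).

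Cs2g11330, matched to FBP24, a B-sister gene that acts in the ovule and seed coat of petunia, had no fragment in any of the 18 peel libraries. In pulp it had 0.109 (JC), 0 (TY), 0.165 (XF), 0.0075 (CU), 0 (DE) and 0.445 (RR) FPKM, on up to 39 fragments in 1 library. It was kept only through RR, so these levels are a description with no test. RR pulp library 1 alone had 0.881 FPKM, and the mean of the other RR pulp libraries was 0.226 FPKM, below the filter.

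Seed material in hand-dissected pulp can carry ovule and seed RNA, so the seed markers are given beside AGL11 and FBP24. The summed FPKM of 16 genes with seed storage or oleosin descriptions ran in peel from 40.4 to 52.7 over CO libraries and from 45.8 to 52.6 over VO libraries, and in pulp from 43.7 to 54.6 over CO and from 43.7 to 94.0 over VO. A pair of VO pulp libraries stood apart, CU library 3 at 94.0 and RR library 3 at 84.8, while the other 7 ran from 43.7 to 57.6. CU library 3 also had the highest AGL11 level (13.2 FPKM), and the other CU pulp libraries, at 9.51 and 8.51 FPKM, were above every pulp library of JC, XF, DE and RR, which ended at 5.28 FPKM. RR library 3 had the lowest AGL11 level of the RR pulp libraries, at 3.89 FPKM against 4.25 and 5.28 FPKM. FBP24 was highest in RR library 1, where the seed sum was 54.6. It was at 0 in CU library 3 and at 0.404 FPKM in RR library 3. Of the 16 seed genes, 1 in CO pulp and none in VO pulp were at 0 in every library. By variety mean, most of the sum came from Cs8g17860 and orange1.1t03751, which were present in every variety and tissue. They had 34.2 and 10.1 FPKM in CU pulp, 36.3 and 9.44 FPKM in RR pulp and 33.2 and 10.4 FPKM in DE pulp. The sums of 94.0 and 84.8 in CU library 3 and RR library 3 lay well above such levels. Cs4g11110, a 2S seed storage protein, had 2.09 (JC), 0.190 (TY), 0.522 (XF), 6.53 (CU), 0 (DE) and 5.99 (RR) FPKM in pulp. These values and the orders below are means of 3 libraries, and the part of CU library 3 and RR library 3 in them is not given here. The seed genes did not share 1 order of the varieties in pulp: 8 of the 16 were highest in CU, 2 each in JC, TY, XF and RR, and none in DE. Those highest in TY were Cs3g04540 (a glutelin, 2.58 FPKM in TY and 0.356 in CU) and Cs1g23800 (a vicilin-like protein, 2.14 and 1.22 FPKM). The part of seed material in these levels was not tested.

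**Figure D5:**
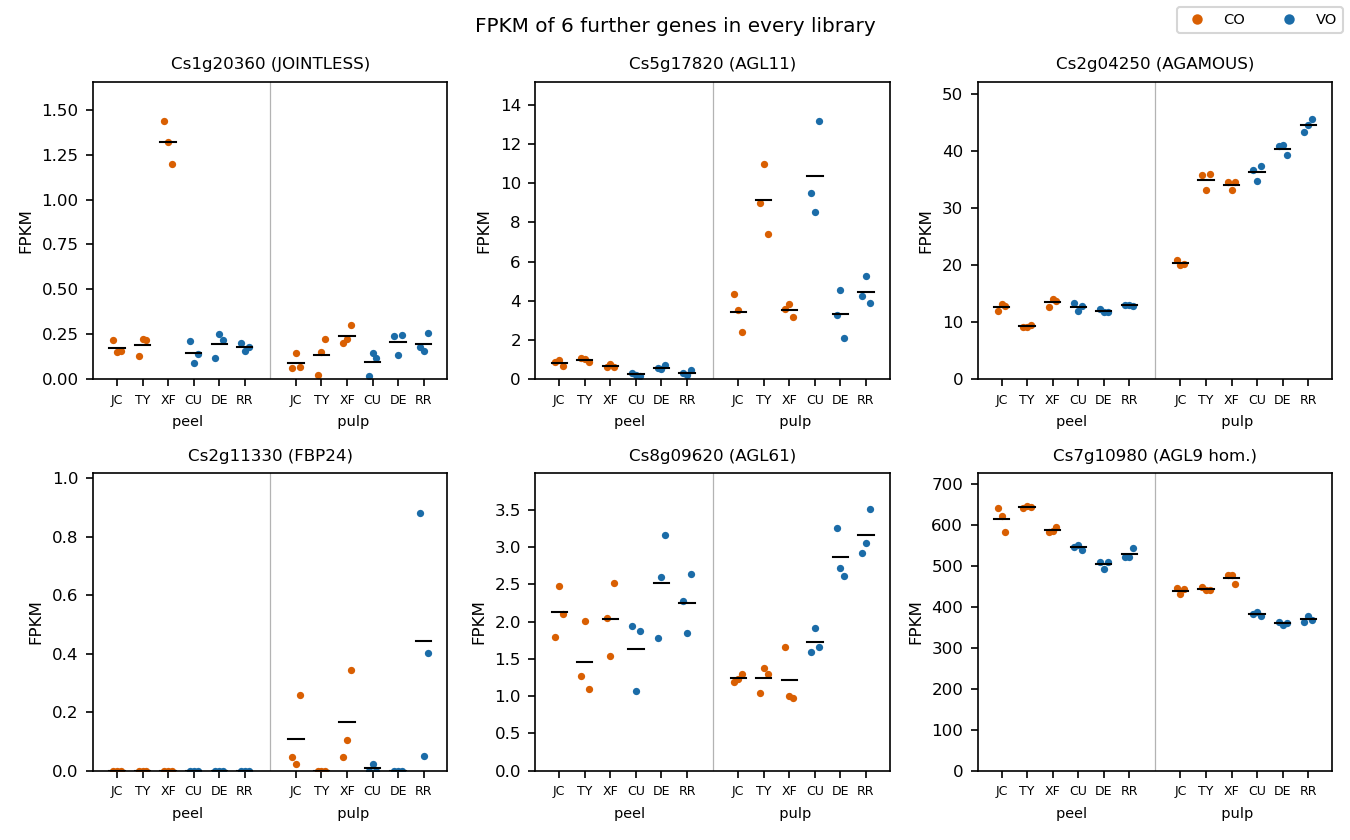
FPKM in each of the 36 libraries (points) for 6 further members, by variety within peel and pulp; black bars are means of 3 libraries, orange is CO and blue is VO. JOINTLESS (Cs1g20360) is high in XF peel alone at 1.32 FPKM, AGL11 (Cs5g17820) is high in TY and CU pulp, and FBP24 (Cs2g11330) is at 0 in all peel libraries.

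Genes that act around the MADS-box factors were counted from lists of description words. List genes that reached the filter in 1 cultivar group only were not set apart in these counts. The share of all genes with an unadjusted p under 0.05 is not given here, so counts at that level have no background. Of 19 flowering time genes tested in peel, 2 were higher and 3 were lower in VO, and of 20 in pulp none was higher and 2 were lower (limma; 7 had an unadjusted p under 0.05). These were 26.3% and 10.0% of the list, against the 20.4% in peel and 19.5% in pulp of all genes that differed. Cs9g04500, a flowering-promoting factor 1-like gene, had 4.62 ± 0.4931 FPKM in CO peel and 16.7 ± 3.38 in VO peel (SD, n = 3; log2 1.83, adjusted p = 0.00174), and Cs2g06960, matched to MOTHER OF FT AND TFL1, had 46.5 ± 8.71 and 29.5 ± 1.48 FPKM (log2 -0.64, adjusted p = 0.0233). Of the floral co-regulators, 4 of 20 were higher in VO in peel and 4 of 21 in pulp, and none was lower (limma; 5 and 7 had an unadjusted p under 0.05 in either direction). Over all genes 13.2% and 12.0% were higher and 7.15% and 7.48% lower, and the share of the list that differed was close to that of all genes. Cs3g23280, matched to WUSCHEL-related homeobox 4, a cambium factor in Arabidopsis, had 0.660 ± 0.361 FPKM in CO peel and 2.02 ± 0.602 in VO peel (log2 1.61, adjusted p = 0.0284). Cs3g27390, matched to WUSCHEL-related homeobox 13, had 24.2 ± 5.01 FPKM in CO peel and 35.2 ± 0.775 in VO peel (log2 0.56, adjusted p = 0.0361).

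The carpel and fruit patterning genes had 3 of 15 higher in VO in peel and 5 of 14 in pulp, and none lower, against the 13.2% and 12.0% of all genes that were higher (limma; 6 and 7 had an unadjusted p under 0.05 in either direction). In peel the share of the list that differed in either direction was close to the 20.4% of all genes. Their median log2 difference was 0.36 in peel and 0.29 in pulp, against 0.05 and 0.02 over all genes. Cs2g12570, matched to JAGGED, which drives the growth of lateral organs, had 1.17 ± 0.533 FPKM in CO pulp and 4.02 ± 0.961 in VO pulp (log2 1.76, adjusted p = 0.0135). Cs8g14260, matched to YABBY 2, a factor of organ polarity, had 3.98 ± 0.316 FPKM in CO pulp and 9.68 ± 1.30 in VO pulp (log2 1.26, adjusted p = 0.00193).

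Among the SPL genes, which in Arabidopsis act upstream of FRUITFULL and APETALA1 in the floral transition, 4 of 13 were higher in VO in peel (13.2% of all genes were) and 4 of 11 in pulp (12.0% of all genes were), and none was lower (limma; 6 and 7 had an unadjusted p under 0.05 in either direction). Cs7g10990 (matched to SPL16, and named CsSPL13 in the study) was higher in VO by 0.76 in peel and 1.00 in pulp on the log2 scale (adjusted p = 0.0159 and 0.0320), and Cs2g23550 (SPL4) by 0.41 and 0.59 (adjusted p = 0.0113 and 0.00750). The further AP2-like genes had 2 higher and 2 lower of 8 in peel and 3 higher and 1 lower of 8 in pulp, 4 of 8 in each tissue, against the 20.4% and 19.5% of all genes that differed. Cs5g25540 (PLT1) had 0.288 ± 0.0976 FPKM in CO pulp and 1.08 ± 0.401 in VO pulp (log2 1.69, adjusted p = 0.0198), and orange1.1t01042 (PLT2) had 0.595 ± 0.138 and 1.47 ± 0.511 FPKM (log2 1.23, adjusted p = 0.0223). Nothing was tested for these lists as wholes.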

How the data were processed

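Peel and pulp libraries of 3 CO and 3 VO varieties were analysed from the deposited table of FPKM values, a single table of the whole series with 1 column per library, a gene length and descriptions. Per the labels, the authors aligned reads with TopHat2, quantified them with RSEM and used DESeq (version 1.10.1). Their reference was the C. sinensis genome, whose build is not given in the sources used here. The labels give 3 trees per replicate, and the methods give a lower number. In the methods the variety identifiers of the groups look exchanged (those of VO begin with CO, and most of those of CO with VO), so groups here, and every direction, follow the cultivar labels, whose VO varieties are all named Valencia. The FPKM values as deposited were not scaled further. FPKM times length fell on whole multiples of 1 step per library (100% of values within 0.02), which gave the mapped fragments; intervals for counting error were not computed. The deposited length had a median ratio of 0.983 to the gene span in RefSeq (assembly DVS_A1.0) over 19803 genes matched by protein accession. Of these genes, 57.4% had a ratio from 0.8 to 1.25. Of the 82 members 52 were matched, several of them to the same RefSeq gene, so the match says little on single members.

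The members and lists were chosen with earlier results of these data known. Named genes were those that passed between VO and CO or in the tissue dependence, the highest of each class, and at most 2 per list by size of difference. Values were analysed as log2(FPKM + 0.1), so folds of low genes are understated. VO and CO were compared on the means of each variety's 3 libraries with limma (version 3.58.1, R 4.3.3) with a trend and Benjamini-Hochberg adjustment over all genes kept, at an adjusted p under 0.05. The fit was tested on simulated data. Pulp against peel and its dependence on the group were tested on the difference per variety, and varieties within groups with an F-test on libraries. Tables were handled in Python 3.11.15 with pandas 2.3.3, and plots were drawn with matplotlib 3.10.9. Alternatives were other pseudocounts (0.01 and 1), no filter or a filter at 1 FPKM, median-of-ratios scaling, no trend, a replicate block, the variety as a random block, and leaving out each replicate number, each variety and, chosen after seeing the data, the RR peel library of lowest RNA integrity.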

Additional observations from a re-analysis of the deposited data

Results flagged for a closer look

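The VO minus CO difference depended on the tissue, by the test of that difference, for 3 of the 34 members tested: Cs6g04120 (APETALA 2, larger in pulp by 0.99 on the log2 scale), Cs7g16960 (AGAMOUS, larger in pulp by 0.63) and Cs7g11810 (APETALA 1, -0.62, smaller in pulp). The share of members that passed, 8.82%, was close to the 7.05% of all genes. Each of these calls was lost in most alternatives.

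Single libraries stood apart from the other 8 of their cultivar group and tissue in 7 of 124 sets of 9 libraries, by the gap to the nearest library over the range of the set; chance gives about 1 in 20. Cs4g10750 (AGL82) had 15 fragments in XF pulp library 3 against at most 7 in the other CO pulp libraries (0.727 of the range). Cs1g21080 (AGL61) was high in CU pulp library 2 (0.585) and low in JC peel library 1 (0.499). Cs1g24860 (DEFICIENS) was high in CU peel library 3, at 1.75 FPKM against at most 1.05 FPKM in the other VO peel libraries (0.566). Cs2g11330 (FBP24) had 39 fragments in RR pulp library 1 against 17 in the next (0.542). Cs3g22940 (AGL80) had 7 fragments in JC pulp library 2 against 3 in the next (0.535), and Cs6g13550 (AGL80) was high in JC peel library 3 (0.495).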

How the results depend on the processing

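No member's value that passed changed direction in any alternative. The count of members that passed between VO and CO in peel was 7 and became 3 without the trend, 15 with a replicate block over libraries and 11 with the variety as a random block, where the share of all genes that passed moved from 20.4% to 17.0%, 49.3% and 31.3%; leaving out a replicate number or a variety gave 2 to 8, with 4 without replicate 2 and without CU, 3 without JC or RR and 2 without XF. In pulp it was 10, and became 21 with the replicate block (51.6% of all genes then passed, against 19.5%) and 5 to 10 on leaving out a replicate number or a variety (6 without JC, 5 without DE or RR). Of all genes, 11.9% passed in pulp without JC, 7.84% without DE and 7.71% without RR. The dependence on tissue gave 3, and 0 with a pseudocount of 0.01, with no filter or with no trend, 13 with the replicate block (38.4% of all genes, against 7.05%) and 0 to 2 on leaving out (0 without replicate 1, JC, CU, DE or RR, 1 without XF). The share of all genes was 5.37% with that pseudocount, 4.26% with no filter and 4.30% with no trend. It was 5.22% without replicate 1, and from 0.869% (RR) to 2.53% (JC) without JC, XF, CU, DE or RR. The F-test over varieties gave 20 in peel and 20 in pulp, and 13 to 17 and 11 to 14 on leaving out a replicate number. Of all genes, 37.2% to 41.2% then passed in peel (54.5% before) and 41.9% to 42.7% in pulp (58.5% before). Pulp against peel gave 17 to 27 over all alternatives against 20. The 27 were of 62 members tested with no filter, where 55.4% of all genes passed, against 66.6% before. The 17 were without RR, where 61.0% of all genes passed.

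Same-numbered libraries did not deviate together: the correlation of deviations was -0.033 to 0.036 over 18 pairs of peel and pulp of 1 variety and -0.105 to 0.077 over 90 pairs of varieties, none above 0.1. Low correlations over all genes do not tell whether same-numbered peel and pulp libraries came from the same fruit. The block treats libraries as replicates of the cultivar group. Without the RR peel library of lowest RNA integrity, a setting chosen after seeing the data, the counts were 6 in peel, 20 between tissues, 3 for the dependence on tissue and 19 within groups in peel. Of all genes, 20.1%, 66.5%, 6.89% and 52.5% then passed, in the same order. The 3 varieties of a group limit the small differences that can pass, and members under about 20 fragments a library rest on few counts.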
